A study of Mus musculus with 4 samples.

Results

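Tumour necrosis factor, the death ligands and their receptors were followed in leukocytes from B16-F10 tumours, a mouse melanoma line grown in mice. The set holds 8 of the 32285 genes in the matrices, taken by symbol: the ligand genes Tnf, Lta, Fasl and Tnfsf10 and the receptor genes Tnfrsf1a, Tnfrsf1b, Fas and Tnfrsf10b. Tumours were given CD40 antibody or the buffer it was diluted in, by injection into the tumour, and the same animals received PD1 antibody or IgG into a vein, both on day 8 and on day 11. Harvest followed on day 14. The 4 groups were control (buffer and IgG), CD40 (CD40 antibody, with no PD1 antibody named in its label), PD1 (PD1 antibody without CD40 antibody) and combination (both antibodies). Live CD45+ cells from 6 mice were pooled in each group and sequenced as a single 5′ droplet library, and no age, sex or strain of the mice was found in the labels.

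TNF, encoded by Tnf, binds TNFR1 (Tnfrsf1a), which carries a death domain and can start either NF-kB signalling or cell death, and TNFR2 (Tnfrsf1b), which lacks a death domain and is prominent on regulatory T cells. Lymphotoxin alpha (Lta) is a close relative of TNF that binds the same receptors when it is secreted. Fas ligand (Fasl) and TRAIL (Tnfsf10) are used by cytotoxic T cells and NK cells to kill target cells through Fas and, in the mouse, through the TRAIL receptor encoded by Tnfrsf10b.

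Barcodes numbered 8132 in the control library, 8313 in CD40, 10158 in PD1 and 10091 in combination, with 117735875 to 164755549 UMIs per library, and pairs of libraries shared 94 to 144 barcodes. Cells were sorted into classes by marker genes, none of which is a ligand or receptor of the set, and 5.78% to 6.6% of kept cells met no gate. The labels give the cell type as melanoma, yet 9 to 20 cells per library carried melanoma markers, and the sort was for CD45+ cells. A class was used if no library held fewer than 50 of its cells, which left 6: CD8 T cells (629, 1756, 1005 and 2938 cells, in the order control, CD40, PD1, combination, which is kept throughout), regulatory T cells or Tregs (377, 95, 372 and 123), other CD4 T cells (176, 59, 163 and 85), NK cells (497, 387, 657 and 511), mononuclear phagocytes (3761, 3937, 5447 and 3355) and neutrophils (185, 381, 149 and 1093). Levels are the UMIs of a gene over all UMIs of the class, scaled to CPM. With 1 library per group there is no test and no spread between animals, and the 95% intervals (exact Poisson for levels, exact binomial for shares and ratios) cover counting error only.

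The stretches just before the transcription starts are shown for Tnf and Fasl, ligand genes known to be switched on by T cell receptor signals, and for Fas, a receptor gene whose level followed that of Tnf over the classes. They are the 250 bases upstream in the RefSeq annotation of GRCm38.p6, written 5′ to 3′ on the strand of the gene, and 7 of the 8 genes matched an entry. Capitals mark either GGAAAA, the core bound by NFAT factors, or GGGNNNNTCC, a form of the kappa B site bound by NF-kB, each searched on both strands.
Tnf, chr17:35202008-35202257, minus strand: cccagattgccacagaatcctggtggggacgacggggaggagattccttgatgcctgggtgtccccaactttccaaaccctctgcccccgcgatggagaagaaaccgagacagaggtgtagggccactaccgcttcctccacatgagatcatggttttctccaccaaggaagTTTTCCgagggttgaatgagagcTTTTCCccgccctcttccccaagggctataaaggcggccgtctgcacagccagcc
Fasl, chr1:161788496-161788745, minus strand: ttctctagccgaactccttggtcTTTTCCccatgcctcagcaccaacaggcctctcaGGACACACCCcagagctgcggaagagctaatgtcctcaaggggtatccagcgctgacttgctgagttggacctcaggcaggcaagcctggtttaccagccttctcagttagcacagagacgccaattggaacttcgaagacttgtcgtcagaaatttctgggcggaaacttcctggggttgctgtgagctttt
Fas, chr19:34290409-34290658, plus strand: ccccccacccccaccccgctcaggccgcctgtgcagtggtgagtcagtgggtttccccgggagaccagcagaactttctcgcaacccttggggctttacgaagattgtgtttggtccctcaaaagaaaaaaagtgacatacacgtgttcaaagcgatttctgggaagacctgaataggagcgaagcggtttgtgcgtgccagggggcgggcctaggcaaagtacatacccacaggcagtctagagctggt
The Tnf stretch held the NFAT core at -78 and at -55 from the start, both as the reverse complement TTTTCC. In the Fasl stretch the core lay at -227 and a kappa B match at -193, both reverse complements. The Fas stretch held neither motif, and among the other genes the only match was a kappa B form at -216 of Tnfrsf1a. Of 32851 promoters of this length, 20.4% held the NFAT core and 16.5% the kappa B form, so these matches describe the letters and not a bound factor. Tnf (ENSMUSG00000024401, GRCm38 chromosome 17, 35199381 to 35202007, minus strand, 4 exons) lies next to Lta (ENSMUSG00000024402, 35203165 to 35205351, minus strand, 4 exons), with 1157 bases between them.

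**Figure D1:**
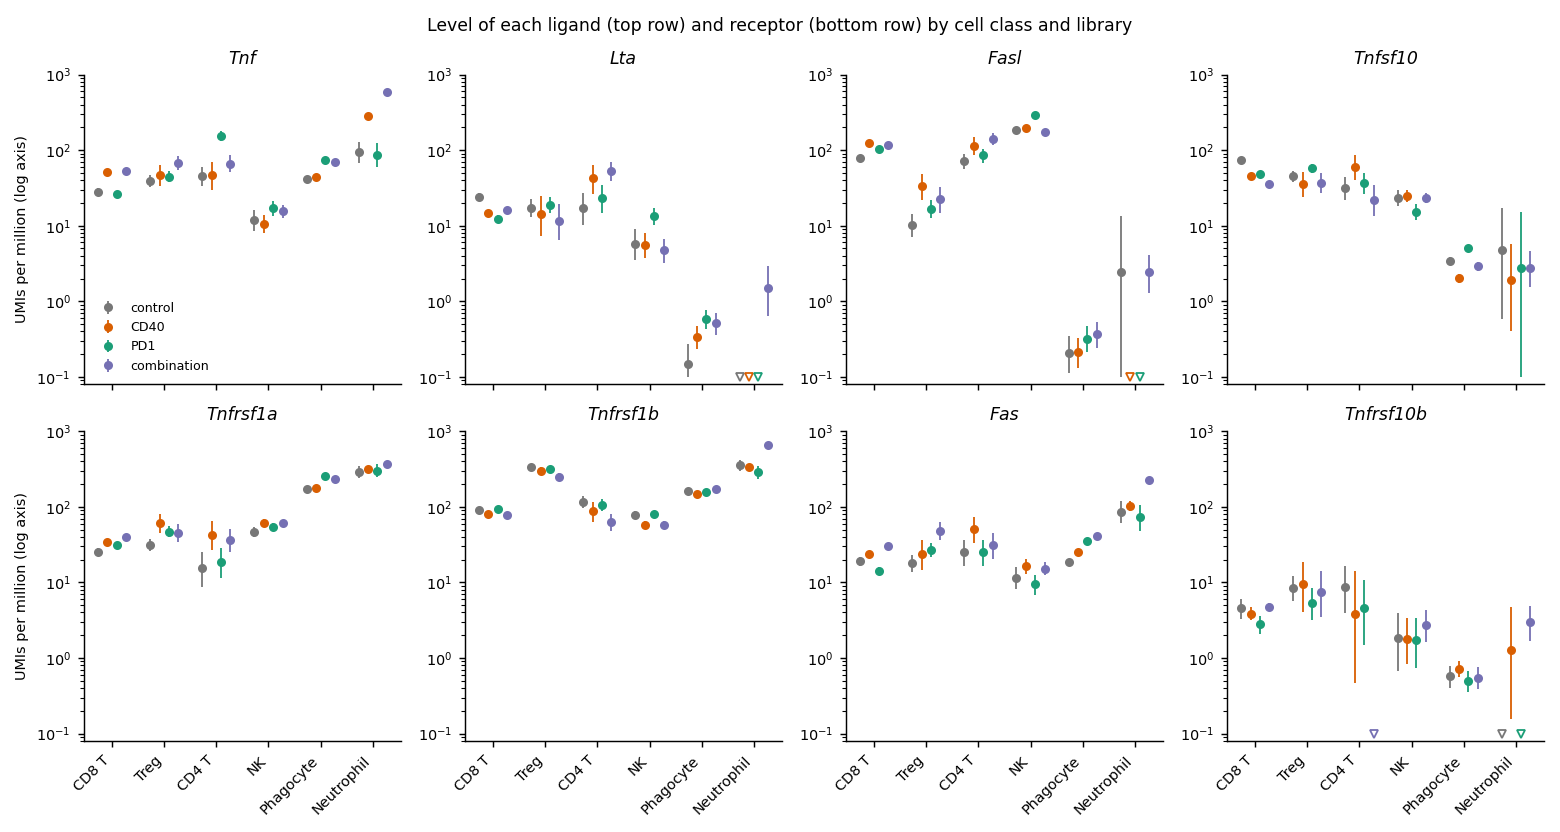
Level of each gene in CPM (log axis) in the 6 cell classes, 1 point per library with its 95% counting interval, and open triangles at the lower edge for 0 UMIs. Tnf is highest in neutrophils of the combination library at 592.4, Fasl is confined to T and NK cells among these classes apart from levels under 3, and Tnfrsf1a is higher in phagocytes and neutrophils than in the lymphocyte classes.

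Tnf itself differed most in neutrophils, where its level was 93.89 CPM (interval 66.77 to 128.4) in control, 284.5 (258.6 to 312.4) in CD40, 86.99 (59.5 to 122.8) in PD1 and 592.4 (572 to 613.3) in combination. Both libraries with CD40 antibody were above both without it, and no interval of the first pair met one of the second. The log2 ratio was 1.60 (1.13 to 2.11) for CD40 against control and 2.77 (2.27 to 3.32) for combination against PD1, a 6.81-fold difference. PD1 antibody alone gave -0.11 (-0.83 to 0.60), whereas combination against CD40 gave 1.06 (0.91 to 1.21). Neutrophils with a Tnf UMI made up 9.19%, 27.6%, 12.8% and 49.1% at median depths of 2004, 3694, 2244 and 4503 UMIs. After each cell was thinned to 1000 UMIs the shares were 4.6%, 9.79%, 3.45% and 24.5%, in the same order of libraries except that control and PD1 changed places. NK cells, the class with the lowest Tnf level, had a Tnf UMI in 4.87% to 12.7% of cells at median depths of 5566 to 11228 UMIs.

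Phagocytes held the largest part of all Tnf UMIs in each library, 69.5%, 59.7%, 74.6% and 36.8%. Their Tnf level was 41.29 CPM (39.78 to 42.84), 44.03 (42.73 to 45.36), 73.92 (72.12 to 75.75) and 70.47 (68.55 to 72.43), so that here both libraries with PD1 antibody were the high ones. The log2 ratio was 0.84 (0.78 to 0.90) for PD1 against control and 0.68 (0.62 to 0.74) for combination against CD40, against 0.09 and -0.07 for the CD40 antibody. The cells gated on C1q genes, which mark tissue macrophages, showed 35.13, 42.53, 76.56 and 71.27 CPM, with ratios of 1.12 (1.04 to 1.21) and 0.74 (0.66 to 0.83) for the PD1 antibody. In phagocytes gated on Ly6c2, a gene of inflammatory monocytes, Tnf was at 61.4, 42.98, 65.44 and 60.44 CPM, and the same ratios were 0.09 (-0.06 to 0.25) and 0.49 (0.33 to 0.66). In control, 1 Ly6c2-gated cell held 95 of the 513 UMIs, and without the 5 highest cells of each library the levels were 37.88, 30.31, 55.69 and 53.9 CPM, with both PD1 antibody libraries higher. Ace-gated monocytes, the patrolling kind, had 37.58, 46.35, 58.29 and 61.86 CPM.

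CD8 T cells had a Tnf level of 27.61 CPM (24.39 to 31.12), 50.73 (48.14 to 53.43), 26.55 (24.31 to 28.95) and 52.44 (50.46 to 54.48). The 2 libraries with CD40 antibody were again above the 2 without it, with log2 ratios of 0.88 (0.69 to 1.07) and 0.98 (0.85 to 1.12), both short of 2-fold. The share of CD8 T cells with a Tnf UMI moved much less, 20.7%, 25.1%, 24.5% and 26.6%, and at 1000 UMIs per cell it was 2.55%, 3.3%, 3.28% and 3.03%. A small number of cells carried many Tnf UMIs. Cells with at least 10 numbered 4, 14, 3 and 33, which is 0.636% (0.174 to 1.62), 0.797% (0.437 to 1.33), 0.299% (0.0616 to 0.87) and 1.12% (0.774 to 1.57) of the class, and they held 23.2%, 49%, 22.2% and 50% of its Tnf UMIs. The highest single cells had 23, 221, 86 and 181 Tnf UMIs. Without the cells with at least 10, the level was 21.41, 26.2, 20.73 and 26.66 CPM, a much narrower gap in the same direction.

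The same step left the other classes further apart. In phagocytes 37, 66, 114 and 92 cells had at least 10 Tnf UMIs, and without them the level was 29.67, 29.71, 49.26 and 46.62 CPM, with the PD1 antibody libraries still well above the others. In neutrophils 1, 7, 0 and 80 cells did, or 0.541%, 1.84%, 0% and 7.32% of them. The remaining neutrophils had 61.09, 129.9, 86.99 and 266.3 CPM, with combination the highest and CD40 nearer to PD1. This cut is on Tnf itself and took unequal shares of the libraries, which by itself narrows the gaps. With the highest 1% of cells left out of each library instead, neutrophils had 53.44, 155.9, 71.7 and 466.5 CPM.

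**Figure D2:**
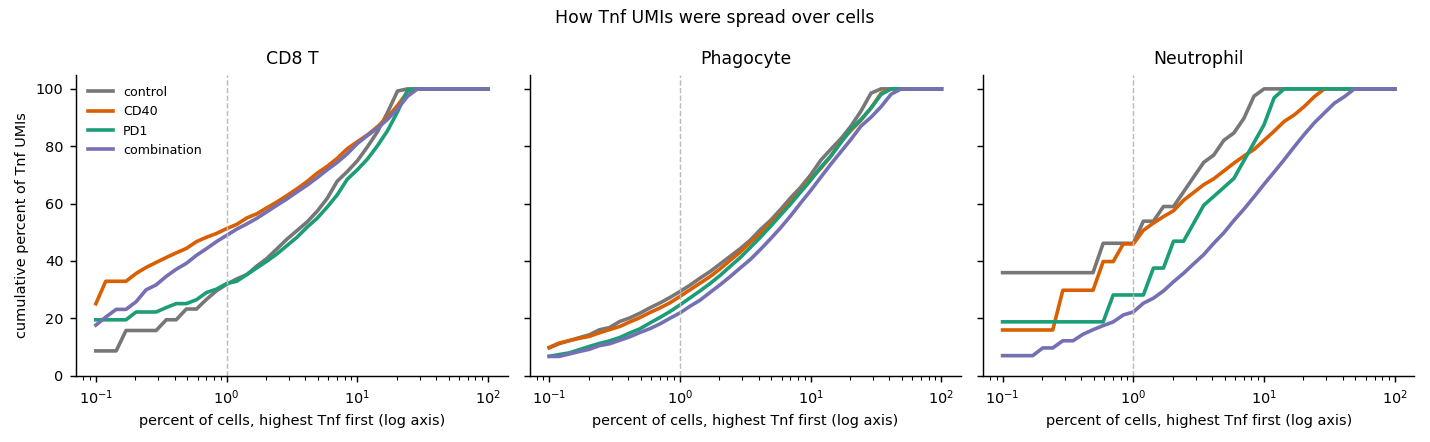
Cumulative percent of a class's Tnf UMIs (vertical axis) held by its cells when ranked from the highest Tnf count (horizontal axis, percent of cells on a log scale), 1 line per library, with a dashed line at 1% of cells. In CD8 T cells the CD40 and combination lines are well above the control and PD1 lines at 1% of cells, whereas the phagocyte lines lie close together.

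Among CD8 T cells the gap in Tnf lay with the cells that carried a Havcr2 UMI, the gene of the inhibitory receptor TIM-3. Cells with Havcr2 had 25.14, 62.82, 26.79 and 64.14 Tnf CPM, and those without it 31.93, 21.29, 25.38 and 24.73. The log2 ratios for the CD40 antibody were 1.32 (1.08 to 1.57) and 1.26 (1.11 to 1.41) with Havcr2 and -0.58 (-0.94 to -0.23) and -0.04 (-0.39 to 0.33) without it. Leaving out the 5 highest cells of each library gave 16.37, 36, 19.45 and 47.14 CPM in the cells with Havcr2, so the CD40 antibody libraries remained the higher ones there. Cells were also split by Tcf7, the gene of the stem-like T cell factor TCF-1. CD8 T cells without a Tcf7 UMI had 27.24, 54.84, 21.23 and 55.9 Tnf CPM, and those with one had 28.92, 21.17, 61.81 and 34.56. In the PD1 library, 1 cell held 86 of the 157 UMIs of the cells with Tcf7. Without the 5 highest cells of each library the levels were 20.14, 33.17, 18.9 and 41.61 CPM without Tcf7 and 13.19, 11.18, 18.07 and 18.48 with it, so PD1 no longer stood out. Depth was not matched between cells with and without these UMIs, and its part in the splits was not tested.

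The remaining lymphocyte classes had few Tnf UMIs. Tregs were at 39.0, 47.31, 44.75 and 67.74 CPM, with the combination library highest and a ratio of 0.60 (0.19 to 1.00) against PD1. There 3 cells held 38 of the 81 UMIs of combination, and without cells of at least 10 Tnf UMIs the levels were 33.14, 47.31, 31.51 and 36.73 CPM. Combination was then no longer the highest. With the highest 1% of cells left out of each library instead, Tregs had 28.16, 40.5, 29.19 and 55.45 CPM, with combination still the highest. The place of combination thus turns on which few cells are left out. Other CD4 T cells were at 45.29, 46.35, 152.5 and 66.29 CPM, but 120 of the 165 UMIs in the PD1 library came from 1 cell, and without it the level was 41.84. NK cells were lowest at 11.86, 10.59, 17.1 and 15.67 CPM, and 40 of the 80 UMIs in the PD1 library were in 1 cell. In control the order was neutrophils first, then CD4 T cells, phagocytes and Tregs, whose intervals overlap, then CD8 T cells and last NK cells. In combination neutrophils again came first, followed by phagocytes, Tregs and CD4 T cells with overlapping intervals, CD8 T cells, whose interval meets those of Tregs and CD4 T cells, and NK cells.

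Lta was read mainly in lymphocytes. CD8 T cells had 23.99 CPM (21 to 27.28), 14.77 (13.39 to 16.26), 12.24 (10.73 to 13.91) and 16.06 (14.97 to 17.2), so the control library was the highest and its interval met no other. The ratio was -0.70 (-0.93 to -0.46) for CD40 against control and -0.97 (-1.24 to -0.70) for PD1 against control, while combination against PD1 was 0.39 and combination against CD40 was 0.12 (-0.05 to 0.29). Lta and Tnf, although neighbours on the chromosome, thus differed in opposite directions between the CD40 and control libraries of CD8 T cells, taken as a whole class. Within each library the few CD8 T cells with at least 10 Tnf UMIs had more Lta than the other CD8 T cells, with values given at the end. Other CD4 T cells showed 17.35, 42.49, 23.1 and 53.03 Lta CPM on 18, 22, 25 and 48 UMIs, with ratios of 1.29 (0.33 to 2.28) and 1.20 (0.47 to 1.96) for the CD40 antibody. Tregs were at 17.3, 14.19, 18.97 and 11.71 CPM with overlapping intervals. NK cells were at 5.78, 5.594, 13.25 and 4.716 CPM, and 1 cell held 38 of the 62 UMIs in the PD1 library. Without the 5 highest cells of each library NK cells had 2.484, 2.627, 2.174 and 1.839 CPM, which no longer set PD1 apart. In phagocytes 0.266% to 0.924% of cells had an Lta UMI, a share taken as background and not as expression. Among dendritic cells, cDC1, a class of 3 to 149 cells, had none in any library. Other dendritic classes did have some: cDC2 had 21, 0, 12 and 0 Lta UMIs on 2 to 247 cells. Plasmacytoid dendritic cells had 3, 0, 7 and 1, and mature dendritic cells 3, 3, 2 and 4.

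Fasl was carried by CD8 T cells and NK cells, which together held most of its UMIs. CD8 T cells contributed 41.6%, 68.1%, 48.9% and 72.6% of them and NK cells 33.5%, 18.9%, 32.4% and 14.3%. Within CD8 T cells the level was 77.85 CPM (72.39 to 83.62), 125.3 (121.2 to 129.5), 104.7 (100.2 to 109.4) and 116 (113 to 119). Control was the lowest and CD40 the highest, and no 2 of the 4 intervals meet. Log2 ratios were 0.69 (0.57 to 0.80) for CD40 against control, 0.43 (0.31 to 0.55) for PD1 against control, 0.15 (0.07 to 0.22) for combination against PD1 and -0.11 (-0.17 to -0.05) for combination against CD40. A Fasl UMI was seen in 56.3%, 73.9%, 70.3% and 72% of CD8 T cells. Phagocytes, which should lack Fasl, had one in 0.346% to 0.656% of cells at median depths of 13054 to 19224 UMIs, above the 11782 to 15880 of CD8 T cells, and B cells, cDC1 and mature dendritic cells had none in any library.

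NK cells had the highest Fasl level of the classes, 184.3 CPM (170 to 199.6), 196.2 (184.1 to 208.9), 287.1 (271.9 to 302.9) and 174.8 (164.8 to 185.2). The PD1 library alone stood apart, at a ratio of 0.64 (0.50 to 0.78) to control, and the combination library lay below it at -0.72 (-0.83 to -0.60). More NK cells were dividing in the CD40 antibody libraries, 13.1%, 44.7%, 14.8% and 39.1%, and dividing NK cells had less Fasl than the others in each library, 149.7 against 193.1, 169.6 against 233, 198.9 against 312.2 and 137.2 against 213.3 CPM. Among non-dividing NK cells the PD1 library was still the highest. Dividing CD8 T cells likewise had less Fasl than the rest, 72 against 90.09, 109.7 against 158.4, 98.73 against 120.7 and 102.5 against 145.6 CPM. Other CD4 T cells were at 71.31, 114, 85.01 and 140.3 Fasl CPM, with ratios of 0.68 (0.16 to 1.19) and 0.72 (0.32 to 1.13) for the CD40 antibody. Tregs had 10.26, 33.12, 16.59 and 22.58 CPM, and the gap between CD40 and control, which was past 2-fold, rested on 28 and 35 UMIs. In control, NK cells came first, CD8 and CD4 T cells followed with overlapping intervals, and Tregs were last.

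Tnfsf10, the gene of TRAIL, was lower in treated CD8 T cells. Their level was 73.1 CPM (67.81 to 78.69), 45.24 (42.79 to 47.79), 47.68 (44.66 to 50.86) and 36.16 (34.52 to 37.86), highest in control and lowest in combination. All 4 ratios were below 0, namely -0.69 (-0.83 to -0.56) for CD40 against control, -0.62 (-0.76 to -0.47) for PD1 against control, -0.40 (-0.51 to -0.28) for combination against PD1 and -0.32 (-0.43 to -0.22) for combination against CD40. Neither the dividing nor the non-dividing CD8 T cells were an exception. In dividing cells the ratios were -0.76, -0.67, -0.30 and -0.21 in the same order, and in the others -0.55, -0.48, -0.64 and -0.56. CD8 T cells thus had Tnf and Fasl higher and Tnfsf10 and Lta lower in the CD40 library than in control. Tregs were at 44.86, 35.49, 57.19 and 36.8 CPM, other CD4 T cells at 31.8, 59.87, 36.96 and 22.1 on 20 to 40 UMIs, and NK cells at 23.42, 24.77, 15.39 and 23.28.

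Phagocytes had far less Tnfsf10, 3.407 CPM (2.983 to 3.874), 2.009 (1.738 to 2.31), 5.1 (4.636 to 5.597) and 2.914 (2.535 to 3.334), in 3.89% to 6.15% of cells. Both CD40 antibody libraries lay below their partners, at -0.76 (-1.04 to -0.48) and -0.81 (-1.05 to -0.57), and both PD1 antibody libraries above theirs, at 0.58 (0.35 to 0.82) and 0.54 (0.25 to 0.82). Ly6c2-gated cells followed the same order with 5.626, 2.404, 7.764 and 3.636 CPM. C1q-gated cells had 3.143, 2.339, 4.567 and 3.659 CPM, with combination above control. Ace-gated cells had 3.622, 1.512, 4.795 and 1.191 CPM on 16 to 51 UMIs, with combination below CD40. The intervals of these 2 pairs overlapped. Neutrophils had 1 to 15 Tnfsf10 UMIs per library, too few to compare.

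**Figure D3:**
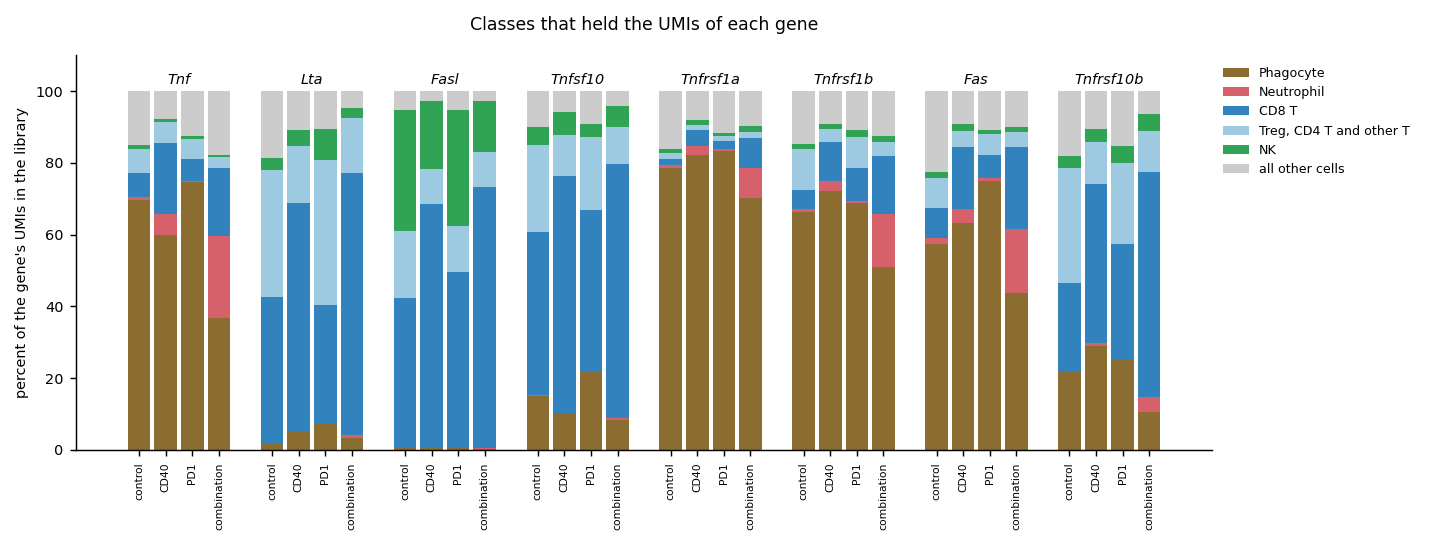
Percent of the UMIs of each gene (vertical axis) found in each cell class, 1 stacked bar per library, with all remaining cells in grey. Phagocytes hold most Tnfrsf1a UMIs in each library, CD8 T and NK cells hold most Fasl UMIs, and the neutrophil part of Tnf, Tnfrsf1b and Fas is largest in combination, at 22.9% for Tnf and 14.6% for Tnfrsf1b.

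Tnfrsf1a, the gene of TNFR1 (ENSMUSG00000030341, chromosome 6, 125349362 to 125362484, plus strand, 10 exons), was read mainly in myeloid cells, and phagocytes held 78.5%, 82.3%, 83.3% and 70.3% of its UMIs. Phagocytes had 171.3 CPM (168.2 to 174.4), 175.4 (172.8 to 178.1), 254.7 (251.4 to 258.1) and 232.4 (228.9 to 235.9), again with both PD1 antibody libraries higher. The ratio was 0.57 (0.54 to 0.61) for PD1 against control and 0.41 (0.38 to 0.44) for combination against CD40. Ly6c2-gated cells showed the gap too, at 277.1, 259.4, 381.7 and 305.1 CPM, beside 131, 147.2, 183.9 and 184.7 in C1q-gated cells. Ratios for PD1 against control were 0.46 (0.39 to 0.53) in the first and 0.49 (0.44 to 0.54) in the second. Neutrophils had 291.3, 315.6, 301.7 and 369.6 Tnfrsf1a CPM, and their intervals overlapped among the first 3 libraries.

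Lymphocytes had less Tnfrsf1a. CD8 T cells were at 25.23 CPM (22.16 to 28.6), 34.19 (32.06 to 36.41), 30.94 (28.52 to 33.53) and 40.01 (38.29 to 41.8), lowest in control and highest in combination, with ratios of 0.44 and 0.37 for the CD40 antibody and 0.30 and 0.23 for the PD1 antibody. NK cells were at 46.54, 60.93, 53.87 and 61.61 CPM and Tregs at 31.37, 60.33, 47.12 and 45.16. Other CD4 T cells were at 15.42, 42.49, 18.48 and 36.46 CPM on 16, 22, 20 and 33 UMIs, with ratios of 1.46 (0.47 to 2.49) and 0.98 (0.14 to 1.86) for the CD40 antibody. In every library neutrophils came first and phagocytes second, with no overlap between their intervals except in PD1, and the lymphocyte classes followed.

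Tnfrsf1b, the gene of TNFR2 (ENSMUSG00000028599, chromosome 4, 145213463 to 145246870, minus strand, 10 exons), was highest in neutrophils and Tregs. Tregs had 335.4 CPM (316.3 to 355.5), 295.7 (260.2 to 334.7), 316.8 (298.1 to 336.4) and 248.4 (220.9 to 278.3), against 116.6, 86.91, 106.3 and 62.98 in other CD4 T cells. Combination was the lowest library in both classes, at -0.35 (-0.54 to -0.16) against PD1 in Tregs and -0.76 (-1.24 to -0.29) in other CD4 T cells. NK cells were lower with the CD40 antibody, 78.79, 57.94, 79.52 and 58.26 CPM, at ratios of -0.44 (-0.69 to -0.20) and -0.45 (-0.66 to -0.24). CD8 T cells had 90.36, 79.57, 93.97 and 78.72 CPM, at -0.18 and -0.26 for the same comparisons. The CD40 antibody libraries were on the lower side for Tnfrsf1b in all 4 lymphocyte classes, although for CD40 against control the interval included 0 in Tregs (-0.39 to 0.02) and in other CD4 T cells (-0.95 to 0.08).

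Neutrophils had 353.9 CPM of Tnfrsf1b (299 to 416), 341.4 (312.9 to 371.8), 285.4 (233.5 to 345.5) and 659.7 (638.2 to 681.7), of which only the combination value stood apart. Its ratio was 1.21 (0.93 to 1.50) to PD1 and 0.95 (0.82 to 1.09) to CD40. Phagocytes were level in comparison, 162.2, 149.5, 156.4 and 170.4 CPM, with ratios between -0.12 and 0.19. Within phagocytes Ace-gated monocytes had 449.9, 359.9, 354.9 and 306.6 CPM, highest in control, above the 113.4, 94.11, 104.4 and 104.5 of C1q-gated cells. Dividing phagocytes had less Tnfrsf1b than the others in each library, 99.9 against 195.2, 93.66 against 197.6, 108.1 against 170.5 and 115.3 against 195.3 CPM.

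Fas, the death receptor bound by Fas ligand (ENSMUSG00000024778, chromosome 19, 34290666 to 34327772, plus strand, 10 exons), was highest in neutrophils of the combination library. Neutrophil levels were 86.67 CPM (60.7 to 120), 102.8 (87.46 to 120.1), 73.4 (48.37 to 106.8) and 224.7 (212.2 to 237.7). The combination library alone was high, at ratios of 1.61 (1.07 to 2.22) to PD1 and 1.13 (0.89 to 1.38) to CD40, while CD40 against control gave 0.25 (-0.28 to 0.81). Phagocytes had 18.63 CPM (17.62 to 19.68), 25.31 (24.33 to 26.33), 35.41 (34.17 to 36.68) and 40.66 (39.2 to 42.15). Each antibody went with a higher value there, at 0.44 and 0.20 for CD40 antibody and 0.93 (0.83 to 1.02) and 0.68 (0.61 to 0.76) for PD1 antibody. Among phagocytes the C1q-gated cells had the lower levels, 10.57, 17.98, 20.82 and 22.46 CPM, and the Ly6c2-gated cells 41.42, 43.46, 61.72 and 70.18.

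In CD8 T cells Fas was at 18.92 CPM (16.28 to 21.87), 24.09 (22.31 to 25.97), 14.1 (12.48 to 15.88) and 30.53 (29.02 to 32.09), lowest in PD1 and highest in combination. The ratio of combination to PD1 was 1.11 (0.93 to 1.31), the only value past 2-fold among the 8 genes in CD8 T cells. Cells with a Tcf7 UMI had more Fas than those without in each library, 35.56 against 14.28, 52.48 against 20.14, 41.34 against 9.99 and 45.58 against 27.62 CPM. The gap between combination and PD1 lay in the cells without Tcf7, at 1.47 (1.23 to 1.71), and not in those with it, at 0.14 (-0.18 to 0.47). Fasl had the reverse split, 42.2 against 87.8, 92.2 against 129.9, 74.4 against 109.3 and 94.85 against 120 CPM. Fas in Tregs was at 18.18, 23.66, 26.97 and 48.51 CPM, in other CD4 T cells at 25.06, 50.22, 24.95 and 30.94 on 26 to 28 UMIs, and in NK cells at 11.56, 16.38, 9.406 and 15.21.

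Tnfrsf10b, the TRAIL receptor gene (ENSMUSG00000022074, chromosome 14, 69767472 to 69784411, plus strand, 8 exons), was close to the limit of detection in each class. CD8 T cells had 4.549, 3.861, 2.79 and 4.704 CPM, and the ratio was 0.75 (0.32 to 1.21) for combination against PD1 and -0.71 (-1.31 to -0.10) for PD1 against control. Tregs had 8.503, 9.463, 5.334 and 7.527 CPM on 29, 8, 18 and 9 UMIs. Phagocytes had 0.5702, 0.7242, 0.4939 and 0.5498 CPM in 0.789% to 1.73% of cells. Within them C1q-gated cells had 0.6984, 0.8506, 0.5195 and 0.7734 CPM on 30, 52, 24 and 26 UMIs. Ly6c2-gated cells had 0.1197, 0.1923, 0.5872 and 0.4545 CPM, and Ace-gated cells 0, 0.378, 0.09402 and 0.07445. Fasl in the C1q-gated cells was at 0.2095, 0.1963, 0.303 and 0.2082 CPM. Whether Tnfrsf10b was above background in phagocytes was not tested. Neutrophils had 0, 2, 0 and 16 UMIs, and 0 counts in control allow up to 8.881 CPM.

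A gene was counted as different between libraries when its CPM differed at least 2-fold and the 2 libraries held at least 30 of its UMIs. CD40 against control and combination against PD1 both ask about the CD40 antibody and share no library, and PD1 against control and combination against CD40 do so for the PD1 antibody. Over the 48 pairs of gene and class, 6 of 42 tested were past 2-fold for CD40 against control, all higher, and 7 of 41 for combination against PD1, of which 5 were higher. For the PD1 antibody they were 3 of 42, all higher, and 4 of 40, of which 3 were higher. Median ratios over the pairs were 0.13, 0.19, 0.20 and 0.15.

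The counts read as follows against all genes tested in the same class, with the comparisons in the order CD40 against control, combination against PD1, PD1 against control and combination against CD40. In neutrophils 1, 3, 0 and 2 of 4 genes were past 2-fold, where 12.4%, 28.3%, 5.39% and 20.6% of all genes were. In CD8 T cells 0, 1, 0 and 0 of 8 were, and 6.32%, 6.73%, 4.51% and 2.77% of all genes. Phagocytes had 1, 0, 1 and 0 of 8 beside 5.89%, 5.11%, 4.56% and 4.26%, and both were Lta at its background level. Tregs had 1 of 8, 0 of 7, 0 of 8 and 1 of 6 beside 7.08%, 7.67%, 2.69% and 4.76%. Other CD4 T cells had 3, 2, 1 and 1 of 7 beside 7.82%, 7.4%, 3.19% and 4.19%, on 59 to 176 cells. NK cells had 0, 1, 1 and 0 of 7 beside 10.5%, 7.65%, 1.56% and 1.79%, and both were Lta, which turned on a single cell. The CD8 T cell and phagocyte counts thus lie near the background shares, and the ratios short of 2-fold given above are the larger part of what these classes show.

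**Figure D4:**
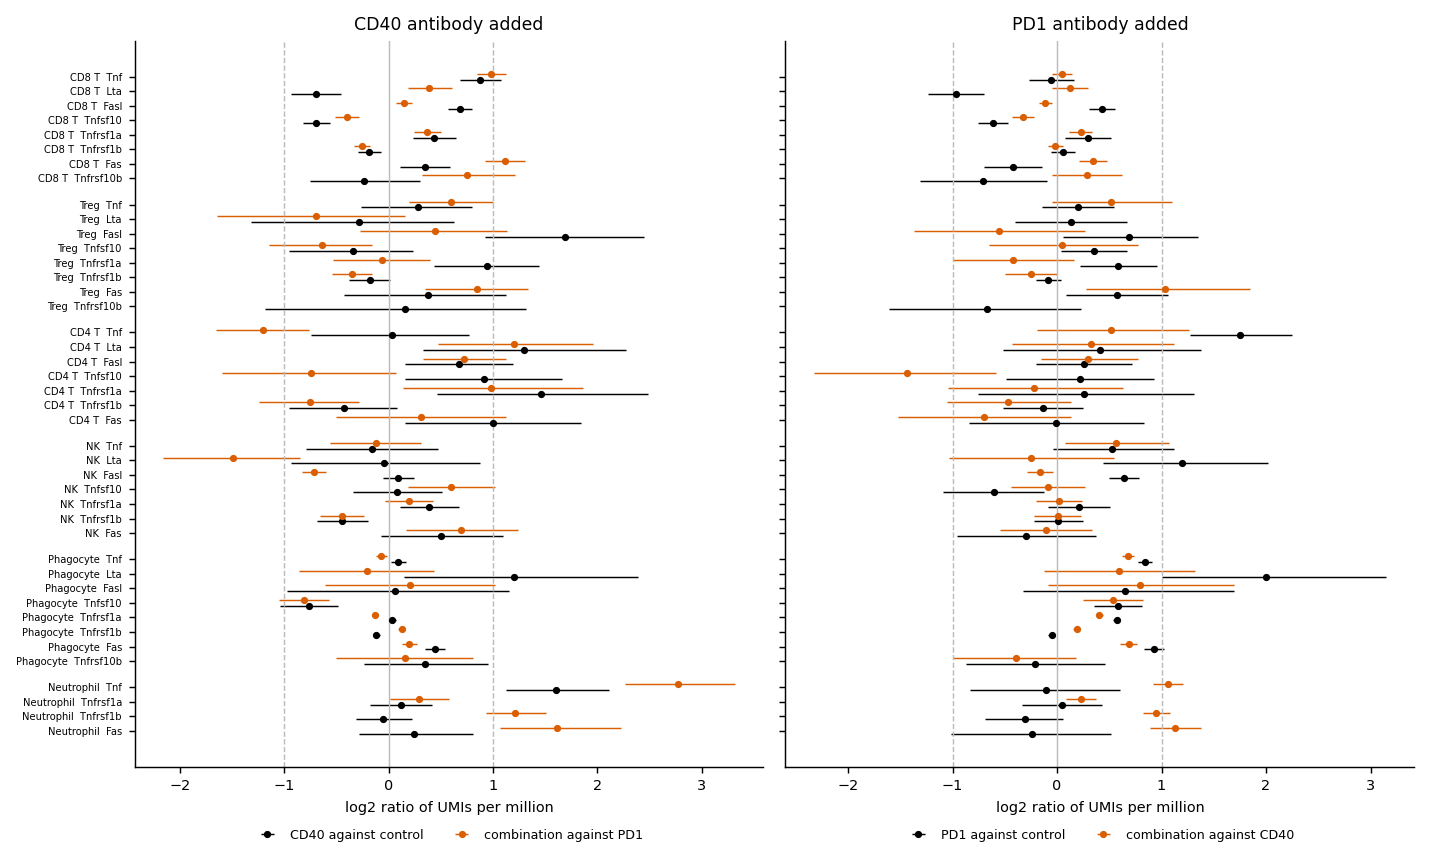
Log2 ratio of CPM with its 95% counting interval (horizontal axis) for every tested pair of class and gene (vertical axis), for the CD40 antibody on the left and the PD1 antibody on the right, with dashed lines at 2-fold. Neutrophil Tnf lies at 1.60 and 2.77 on the left, and phagocyte Tnf, Tnfrsf1a and Fas lie to the right of 0 in both comparisons on the right.

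The neutrophils of the combination library were of another make-up than the rest, and this touches each neutrophil value above. Most neutrophils fell into 3 clusters. One, led by Camp, Ngp and Ltf, which code for granule proteins of young neutrophils, held 60%, 42.3%, 46.3% and 13.4% of them. A second, led by Gdf15, Gadd45g and Ccl2, held 37.3%, 48.8%, 43.6% and 24.2%. The third, led by Il1a, Saa3, Csf3 and Ptgs2, genes of inflammation, held 2.7%, 8.92%, 8.72% and 61.3%, which is 5, 34, 13 and 670 cells. Clusters were made from the expression of many genes, and the genes of the set were not left out of the choice. Levels between and within clusters are therefore given as a description.

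Tnf was low in the Camp cluster, at 20.59, 48.9, 14.48 and 28.14 CPM, and higher in the Gdf15 cluster, at 148.5, 218.3, 110 and 358.6. Within the Gdf15 cluster the ratio of combination to PD1 was 1.70 (1.05 to 2.45) and that of CD40 to control 0.56 (0.00 to 1.16). Without the 5 highest cells of each library the Gdf15 cluster had 40.16, 121.5, 52.67 and 296.7 CPM, with combination still the highest. In the Il1a cluster CD40 had 1555 CPM on 232 UMIs and combination 797 CPM on 2685, while control and PD1 had 4 and 11 UMIs. The CD40 value came from 34 cells, of which 1 held 70 of the UMIs. Without the 5 highest cells of each library CD40 had 431.6 CPM and combination 666.5, so the order of these libraries in the Il1a cluster turns on a few cells. For Tnfrsf1b the Gdf15 cluster had 469.5, 435.3, 399.5 and 494.1 CPM, with a ratio of 0.31 (-0.05 to 0.69) for combination against PD1 in place of 1.21 over all neutrophils. Fas in that cluster was at 71.86, 63.06, 46.32 and 132.5 CPM, at 1.52 (0.51 to 2.75) for combination against PD1 and 1.07 (0.62 to 1.55) against CD40. The PD1 value of Fas there rested on 8 UMIs. In the Il1a cluster Fas was at 301.5 CPM in CD40 and 277.2 in combination, so combination was not above CD40, and control and PD1 had 2 and 3 UMIs. In the Camp cluster it was at 97.81, 108.3, 115.9 and 166.8 CPM. The Fas and Tnf gaps between combination and PD1 were also seen inside the Gdf15 cluster, whereas for Tnfrsf1b the interval within that cluster included 0. In the Il1a cluster Tnfrsf1b was at 823.4 CPM (793.1 to 854.6) in combination. There it was above the 643.3 (521.1 to 785.6) of CD40 and the 265.6 (127.4 to 488.4) of PD1. Control and PD1 had 8 and 10 Tnfrsf1b UMIs in that cluster. In the Camp cluster Tnfrsf1b was at 211.1, 127.5, 173.8 and 152.8 CPM, with control the highest. Neutrophil-gated cells had 160.5 to 271.8 CPM over the 9 phagocyte markers, lowest in combination, against 7192 to 8597 in phagocytes. A list of 12 genes of tissue dissociation stress, chosen after seeing the data, summed to 7232, 5171, 7280 and 6470 CPM in neutrophils, lowest in CD40. In phagocytes it summed to 1786, 1689, 2098 and 1725 CPM, highest in PD1 but not in combination, and in CD8 T cells to 1071, 1156, 1238 and 1164. Its part in the Tnf values was not tested. Over all genes tested the median neutrophil ratio was -0.11, -0.47 and -0.48 for CD40 against control, combination against PD1 and combination against CD40, so relative to that median the ratios above are larger.

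**Figure D5:**
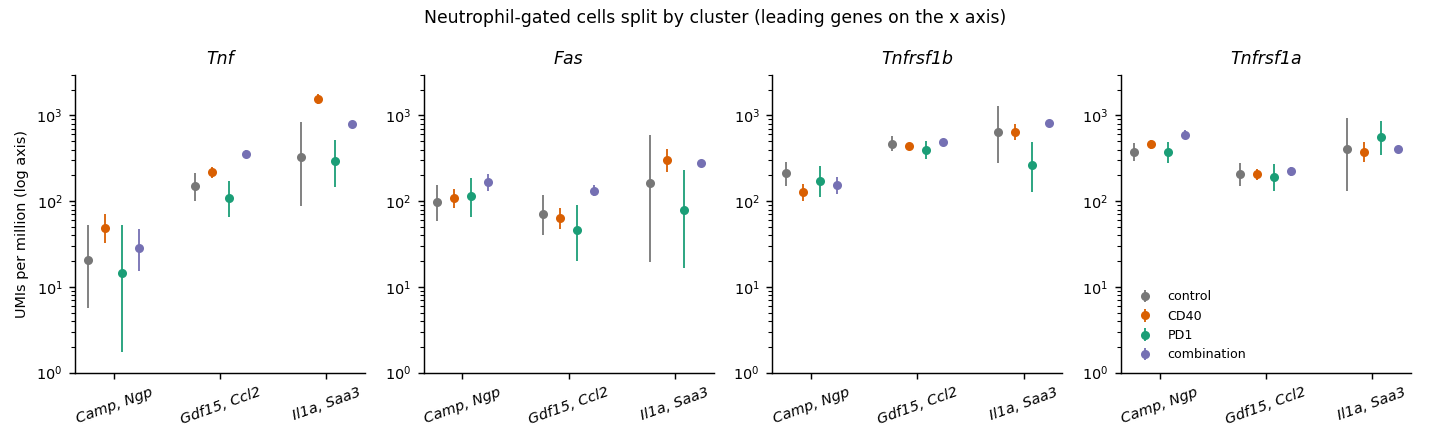
Levels of Tnf, Fas, Tnfrsf1b and Tnfrsf1a in CPM (log axis) in the 3 neutrophil clusters named by leading genes on the horizontal axis, 1 point per library with its 95% counting interval. Tnf is lowest in the Camp cluster and highest in the Il1a cluster, where control and PD1 rest on 5 and 13 cells.

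The wider pathway was read from lists of adaptors, death effectors, brakes, related ligands, NF-kB genes and mRNA decay factors. In neutrophils 12 of 21 tested NF-kB genes were at least 2-fold higher in combination than in PD1 and 0 were lower, with a median ratio of 1.25 beside -0.47 for all genes. Of all 6989 genes tested 344 were that much higher and 1634 lower. For CD40 against control, 5 of 19 were higher and 1 lower, with a median of 0.21 beside -0.11, and 362 of all 5414 genes were higher and 307 lower. Combination against CD40 had 14 of 21 higher and 1 lower, with a median of 1.46 beside -0.48. Of all 7553 genes tested there, 311 were higher and 1247 lower. PD1 against control had 1 of 18 higher and 1 lower, with a median of 0.06 beside -0.08, and 77 of all 3356 genes were higher and 104 lower. Sod2, the mitochondrial superoxide dismutase and an NF-kB target, was at 40.93 CPM in control, 243.8 in CD40, 48.93 in PD1 and 1308 in combination. Traf1, an adaptor of TNFR2, was at 19.26, 87.95, 46.21 and 468.4, and Tnfaip3, the gene of the brake A20, at 57.78, 117.7, 108.7 and 454.7. Icam1, an adhesion molecule, followed with 40.93, 132.6, 54.37 and 417.6 CPM. Nfkbib and Nfkb2 also passed 2-fold in both comparisons of the CD40 antibody. For the PD1 antibody Nfkb1 did, with 57.78, 66.61, 116.9 and 192.8 CPM. The clusters that make up the class differ between libraries as given above, and their part in these counts was not tested.

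In phagocytes the NF-kB list leaned upward with the PD1 antibody, where 18 of 22 genes were above 0 for PD1 against control and 21 of 22 for combination against CD40. The medians were 0.53 and 0.43 beside -0.07 and -0.04 for all genes, and 2 and 4 genes were at least 2-fold higher, beside 271 of all 14028 and 222 of all 14131 genes. Il6 passed it in both, on levels of 0.2778 CPM in control, 0.2754 in CD40, 0.7121 in PD1 and 0.6597 in combination. The Il6 ratios were 1.358 (0.597 to 2.182) and 1.260 (0.551 to 1.998). Its levels were low, none above the highest phagocyte level of Tnfrsf10b, 0.7242 CPM. Ltb, the gene of lymphotoxin beta, was higher in phagocytes with the CD40 antibody, at 6.697, 16.56, 8.269 and 16.78 CPM. The adaptor, effector and brake lists had no phagocyte gene past 2-fold in any of the 4 comparisons.

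None of the 16 adaptors, 12 death effectors and 12 brakes passed 2-fold in CD8 T cells in any of the 4 comparisons. In NK cells 2 of 12 brakes were at least 2-fold lower for CD40 against control and 1 of 12 for combination against PD1, where 10.5% and 7.65% of all genes passed 2-fold in either direction. Of the 12 brakes 1 and 0 were above 0, and the medians were -0.36 and -0.38 beside -0.05 and -0.06 for all genes. Of the 12 death effectors 9 and 6 were above 0 in the same comparisons, with medians of 0.38 and 0.02. Only 1 effector, Bcl2l11, was at least 2-fold lower, and 0 were that much higher. Bcl2, which blocks the mitochondrial death pathway, was at 493.4, 218.8, 509.2 and 167.6 CPM in NK cells, and Bcl2l11, the gene of its opponent BIM, at 150, 66.13, 163.7 and 79.87. The change in the dividing share of NK cells moved with them, and its part was not tested. Tnfrsf26, a gene of the TNF receptor family, was at 16.12, 4.395, 16.67 and 6.541 CPM. In CD8 T cells Csf2, the gene of GM-CSF, was highest in control, at 41.05, 14.84, 12.81 and 6.074 CPM. Most Csf2 UMIs of CD40 (327) and combination (203) were in the 14 and 33 cells with at least 10 Tnf UMIs. The other CD8 T cells had 39.69, 3.297, 12.75 and 2.08 Csf2 CPM. Cxcl2 in the same class was at 3.722, 19.77, 1.446 and 21.42 CPM, and Il1b, a gene of myeloid cells, at 0.4136, 0.6022, 5.838 and 8.138. Beside this, the 9 phagocyte markers summed to 41.77, 41.66, 42.1 and 35.15 CPM in CD8 T cells and the neutrophil markers S100a8 and S100a9 to 2.481, 6.837, 0.7749 and 10.38, and the part of such cells in it was not tested. Other CD4 T cells had Tnfrsf25, the gene of the death receptor DR3, at 33.73, 81.12, 33.27 and 70.71 CPM, and Zfp36l2, an mRNA decay factor, at 479.9, 200.9, 434.3 and 183.4. In Tregs Il1b was at 18.47, 0, 22.22 and 2.509 CPM, beside phagocyte markers at 79.46, 72.16, 144.6 and 63.56.

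Genes with the most similar profile were sought over the 24 points of class and library among 13539 genes, on log2(CPM + 1). Points of 1 class share cell type and points of 1 library share preparation, so the correlations are descriptions. For Tnf the closest gene was Fas, another of the set, at a Pearson r of 0.877, followed by Olfr56 and Herc6 at 0.871. Sdcbp (0.972), Pla2g7 (0.960) and Cdc42ep2 (0.959) were closest to Tnfrsf1a, and Snx20 (0.918), Cystm1 (0.909) and Rab8b (0.901) to Tnfrsf1b. Fasl was closest to Lax1 (0.984), Gm14029 (0.981) and Gm33104 (0.978), and Tnfsf10 to Unkl and Tox (both 0.969) and Pitpnm2 (0.966). Fas paired with Parp10 (0.910), Rgcc (0.902) and Nqo1 (0.901), Lta with Faah (0.959), Xlr4b (0.954) and Dkkl1 (0.951), and Tnfrsf10b with Paqr8 (0.885), 2310002F09Rik (0.873) and 4932422M17Rik (0.862).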

How the data were processed

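The authors deposited raw UMI counts per gene and barcode, 1 matrix per library, made with Cell Ranger 7.0.0 on GRCm38, per the file headers. In the submitters' processing notes stand the same version and build. No source used here names the annotation release or the counting of introns. A minimum of 300 genes and a maximum of 10% mitochondrial UMIs were set for each cell, and doublets with a Scrublet score above 0.25 were removed (149, 163, 257 and 281 cells), which left 7698, 7743, 9681 and 9439. Classes were gated per cell on marker UMIs, for example 300 CPM of Cd3 genes with at least 3 UMIs for T cells, 1000 CPM of Lyz2 and C1q genes for phagocytes and 2500 CPM of S100a8 and S100a9 for neutrophils, each with at least 2 markers. These thresholds were set after the marker distributions were seen. Counts were summed per class and library. Clusters came from scanpy 1.11.5 with leidenalg 0.10.2 (2000 variable genes, 30 components, resolution 2). Below 3 counts, a level was set to 3 for ratios.

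The members, lists and alternatives were chosen with earlier results of these data known. Pathway genes were named when past 2-fold, with at least 30 UMIs in the higher library and the same sign in both comparisons of an antibody, up to 6 per class, and the 3 most similar genes were named for each member. Coordinates are from GENCODE vM21. The code was tested on simulated data.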

Additional observations from a re-analysis of the deposited data

How the results depend on the processing

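Of the 20 ratios past 2-fold, 20 stayed past it with doublets kept and with no mitochondrial limit, 19 with the median ratio of genes set to 0 and 19 with mitochondrial and ribosomal genes left out of the total. The number was 16 with dividing cells left out, 16 with 1 more marker in each gate and 15 with every cell given equal weight. Without the 5 cells with the most UMIs of the gene, an alternative chosen after seeing the data, it was 14, and the count of genes and classes past 2-fold for CD40 against control was 3 in place of 6. With classes taken from clusters, 7 of 13 stayed past 2-fold and the count for combination against PD1 was 2 in place of 7. No cluster was named as CD4 T cells, which held 2 of those 7, while neutrophils held 3 and CD8 T and NK cells 1 each. Clusters named as neutrophils held 275, 716, 238 and 1485 cells, in place of 185, 381, 149 and 1093 by gate. The cause of the fall was not tested further. Lta in NK, PD1 against control, reversed to -0.297 with 1 more marker, where the cause was not tested, and to -0.193 without the 5 highest cells. No paired analysis was possible because each group is 1 library without replicate numbers. Of the 145 ratios under 2-fold, 100 stayed within their interval with dividing cells left out, 122 kept their sign and 130 stayed under 2-fold. Without the 5 highest cells these numbers were 134, 125 and 137, with equal weight per cell 123, 122 and 140, and with classes from clusters, where 124 could be computed, 108, 111 and 121. In the other 5 alternatives 139 to 145 stayed within the interval, 141 to 145 kept their sign and 144 or 145 stayed under 2-fold. The median ratio that was set to 0 in 1 alternative, taken over genes with at least 50 UMIs in each of the compared libraries, was -0.19, -0.44 and -0.45 in neutrophils for CD40 against control, combination against PD1 and combination against CD40. It was 0.13 in CD4 T cells for CD40 against control, so ratios relative to it are that much smaller there, and within 0.08 of 0 in the other classes except neutrophils. Depth limits Tnfrsf10b throughout, and Tnfsf10, Fasl and Lta in neutrophils.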

Other observations

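The CD8 T cells with at least 10 Tnf UMIs (4, 14, 3 and 33 cells in control, CD40, PD1 and combination) had more Ifng, Ccl3 and Nr4a1 than the other CD8 T cells in each library; these genes were looked at after the cells had been seen. Ifng, the gene of interferon gamma, was at 5013, 10799, 22718 and 4783 CPM in them and at 217.2, 421.4, 575.8 and 454.5 in the other CD8 T cells. The chemokine gene Ccl3 was at 4589, 10156, 30939 and 8852 against 779.4, 863.9, 2267 and 1237 CPM. Nr4a1, an early gene of T cell receptor signalling, was at 626.6, 548.8, 1721 and 577.1 against 19.22, 27.35, 37.11 and 59.24 CPM. Gzmb, the gene of granzyme B, was at 1647, 1049, 1498 and 5390 against 970.4, 1288, 3444 and 2989 CPM, so it was lower in these cells of CD40 and PD1. Il2 was at 293.1 CPM in these cells of control and 493.9 in PD1, but at 3.049 in CD40 and 0 in combination, on 29, 31, 1 and 0 UMIs. Lta was higher in these cells of each library, at 101.1, 51.83, 95.59 and 77.18 against 23.19, 14.34, 11.97 and 14.99 CPM, on 10, 17, 6 and 67 UMIs. Fasl differed less, at 121.3, 228.7, 79.66 and 159 against 77.4, 124, 104.8 and 115.2 CPM, and Tnfsf10 was at 40.43, 36.59, 15.93 and 21.89 against 73.43, 45.34, 47.79 and 36.41. These cells were deeper, with median UMIs of 15426, 21187.5, 18862 and 19587 beside 11668, 13003.5, 15868 and 13299.

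B cells, too few for the comparisons at 226, 51, 133 and 40 cells, had Fas at 14.03 CPM (7.855 to 23.15) in control, 71.59 (51.14 to 97.48) in CD40, 2.975 (0.3603 to 10.75) in PD1 and 55.1 (38.16 to 76.99) in combination. Lta in B cells was at 10.29, 76.96, 26.78 and 35.65 CPM. Mature dendritic cells, at 151, 24, 54 and 21 cells, had Fas at 89.24, 83.18, 95.43 and 76.1 CPM and Tnf at 7.069, 84.88, 17.25 and 59.79.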
